A study of Homo sapiens with 6 samples.

Results

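The 38 G2/M and mitosis genes described here were a named list of cell cycle regulators, checkpoint kinases, kinetochore and centromere proteins, spindle motors and cytokinesis factors, each matched by its symbol to a row of the gene table, which held 60664 genes in all. All 38 symbols were found, and 37 of the genes had enough reads to be tested among 17638 tested genes. The exception was NUSAP1. The libraries were 6 bulk mRNA-seq libraries of HCT8, an established human colorectal cancer line labelled wild type, grown in DMEM with 10% fetal bovine serum. In 3 of them, called GPT1 here, the cells had received a plasmid for overexpression of GPT1, the cytosolic alanine aminotransferase, which moves an amino group between alanine and alpha-ketoglutarate. In the other 3, called control, they had received a control plasmid. The labels give neither the promoter of the plasmid nor the time after transfection, and they do not say that the libraries came from separate cultures, so the p-values cover only the spread among these 6 samples, part of which may be technical. The study's stated purpose was to find signalling regulated by GPT1 in colorectal cancer.

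Entry into mitosis is driven by CDK1 bound to cyclin B, which is held off by inhibitory phosphorylation and released by CDC25 phosphatases, with PLK1 and Aurora kinases feeding the switch. The spindle checkpoint then keeps the anaphase-promoting complex (APC/C) in check until kinetochores, built on centromeric chromatin, hold microtubules. Most of these genes are transcribed in waves late in the cell cycle, through MuvB complexes with B-MYB and FOXM1, which act at promoter elements called CHR, and through the CCAAT-binding factor NF-Y. Proliferating colorectal cancer cells express the whole programme. In a bulk library, fewer cells in G2 or mitosis cannot be told apart from less RNA of these genes per cell.

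Promoter windows from RefSeq (assembly GRCh38.p14, from 250 bases before to 50 bases after each start) were read for 32 of the 38 genes, 42 windows in all, without AURKA, UBE2C, BUB3, TTK, BIRC5 and TPX2. A CHR (TTTGAA or TTCGAA, either strand) stood in 26 of the 42 windows, or 61.9%, against 16.4% of 35116 promoter windows of the same length. A CCAAT box (CCAAT, either strand) stood in 32 of the 42, or 76.2%, against 34.6%. The following are the 150 bases before the start of 5 genes, 5′ to 3′ on the gene's strand, shown because they carry different element counts and belong to genes that were higher, lower and not past the test. Capitals mark CHR and CCAAT matches, which can overlap each other.
CCNB1 (chr5:69167000-69167149, plus strand): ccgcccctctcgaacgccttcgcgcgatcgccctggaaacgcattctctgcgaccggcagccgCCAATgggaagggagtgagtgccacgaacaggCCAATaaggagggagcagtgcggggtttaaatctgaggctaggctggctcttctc
CCNB2 (chr15:59104996-59105145, plus strand): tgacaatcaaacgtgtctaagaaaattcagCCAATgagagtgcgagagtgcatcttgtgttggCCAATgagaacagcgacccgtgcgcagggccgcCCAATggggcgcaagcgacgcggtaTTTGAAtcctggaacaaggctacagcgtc
CENPE (chr4:103198344-103198493, minus strand): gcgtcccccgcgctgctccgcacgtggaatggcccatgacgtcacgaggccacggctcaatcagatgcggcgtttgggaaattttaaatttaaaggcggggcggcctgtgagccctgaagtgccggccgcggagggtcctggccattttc
HMMR (chr5:163460482-163460631, plus strand): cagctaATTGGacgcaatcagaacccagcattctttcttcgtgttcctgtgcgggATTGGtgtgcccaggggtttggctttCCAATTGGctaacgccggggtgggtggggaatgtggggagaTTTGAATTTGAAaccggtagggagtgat
MKI67 (chr10:128126424-128126573, minus strand): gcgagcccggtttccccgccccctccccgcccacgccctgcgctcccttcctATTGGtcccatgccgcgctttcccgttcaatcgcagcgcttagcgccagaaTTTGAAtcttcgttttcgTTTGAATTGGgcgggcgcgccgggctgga

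In these stretches CCNB1 had 2 CCAAT boxes and no CHR match, and its close relative CCNB2 had 3 CCAAT boxes and 1 CHR. CENPE had neither, HMMR had 2 CHR and 4 CCAAT matches, and MKI67 had 2 of each. A match to these letters is a description of the sequence and not a measured binding site. Over the whole windows, a CHR stood in at least 1 window of 1 of the 3 matched genes that rose, of 4 of the 5 that fell and of 17 of the 23 that did not pass the test. The same was so for 5336 of 27305 genes over all promoters. AURKA, UBE2C and BIRC5, which rose, and TTK, which fell, had no window, so this split rests on few genes. No form of the CHR other than TTTGAA and TTCGAA was searched, so a gene without a match is not shown to lack the element.

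Library totals ran between 30370654 and 31513656 counts for GPT1 and between 21255655 and 32487217 for control, and control replicate 3 was the shallowest. The overexpressed gene, listed as GPT, had 105529, 96886 and 106063 counts in the GPT1 libraries, against 9, 14 and 3 in the control libraries, which matched every label. Of the 17638 tested genes, 25.1% were called at an adjusted p of 0.05 by the quasi-likelihood test of edgeR with Benjamini-Hochberg adjustment, 10.5% higher and 14.6% lower in GPT1. Fold changes over all tested genes moved with transcript length. The median log2 fold change was 0.14 for the 4598 genes under 2 kb and -0.32 for the 1301 genes over 8 kb, taking each gene's longest GENCODE transcript. Of 17 colorectal epithelial markers, KRT20, CDX1, CEACAM5, CEACAM6 and GPA33 were near 0 in every library, and 11 of the 12 tested fell; their summed level was 575 to 634 CPM (counts scaled to library size) in GPT1 and 945 to 1071 CPM in control. The summed level of 9 neural and kidney-line markers was 1637 to 1741 CPM in GPT1 and 2247 to 2532 CPM in control, with 4 of 8 tested lower. IRS4 averaged 404 CPM in GPT1 and 813 CPM in control, NEFM 104 CPM in GPT1 and 292.5 CPM in control, and NEFL 83.0 CPM in GPT1 and 152 CPM in control. VIM averaged 1040 CPM in GPT1 and 1023 CPM in control, and INA 61.1 CPM in GPT1 and 51.9 CPM in control, and neither passed. PAX8 and STMN2 were near 0. Of the colorectal markers, KRT8 averaged 352 CPM in GPT1 and 529 CPM in control, and KRT18 171 CPM in GPT1 and 261 CPM in control. CDX2, the tested one that did not fall, averaged 45.3 CPM in GPT1 and 41.7 CPM in control. These markers thus fit the colorectal label only in part, and the name HCT8 is used here as the labels give it. Fibroblast markers summed to 26.5 to 28.9 CPM in GPT1 and 24.4 to 28.01 CPM in control, with COL6A3 (log2 fold change 1.46) and LUM (0.80) higher among 5 tested. Leukocyte markers summed to 3.31 to 3.85 CPM in GPT1 and 3.73 to 4.75 CPM in control, with ITGAX (-0.98) lower among 3 tested, and CD3E and the fibroblast marker THY1 were at 0. The part of these markers and of the length trend in the results that follow was not tested, except where a corrected value is given.

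The G2/M and mitosis genes moved in both directions. 6 of the 37 tested rose (CCNB1, CDC25B, AURKA, UBE2C, BIRC5 and KIF2C) and 6 fell (TTK, CENPE, CENPF, HMMR, ASPM and MKI67), which is 16.2% in each direction, against 10.5% and 14.6% of all tested genes. The other 25 did not pass the test. The median log2 fold change of the 37 was -0.17, against -0.02 over all tested genes, with 14 positive and 23 negative values. Together the 38 genes took 0.409 ± 0.0191% of all counts in GPT1 and 0.422 ± 0.0389% in control (SD, n = 3 each), and 0.399% in control without replicate 3. The CPM values of the groups did not overlap for 18 of the 37, against 43.4% of all tested genes. Leaving out single libraries gave between 2 and 6 genes higher and between 2 and 10 lower: 3 higher and 4 lower without control replicate 1, 5 and 10 without control replicate 2, 5 and 4 without control replicate 3, 3 and 2 without GPT1 replicate 1, and 2 and 3 without GPT1 replicate 3. Over the whole table these fits called 1443 to 4907 genes, lowest without GPT1 replicate 3, against 4430 with all libraries. The member counts are to be read beside that range.

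**Figure D1:**
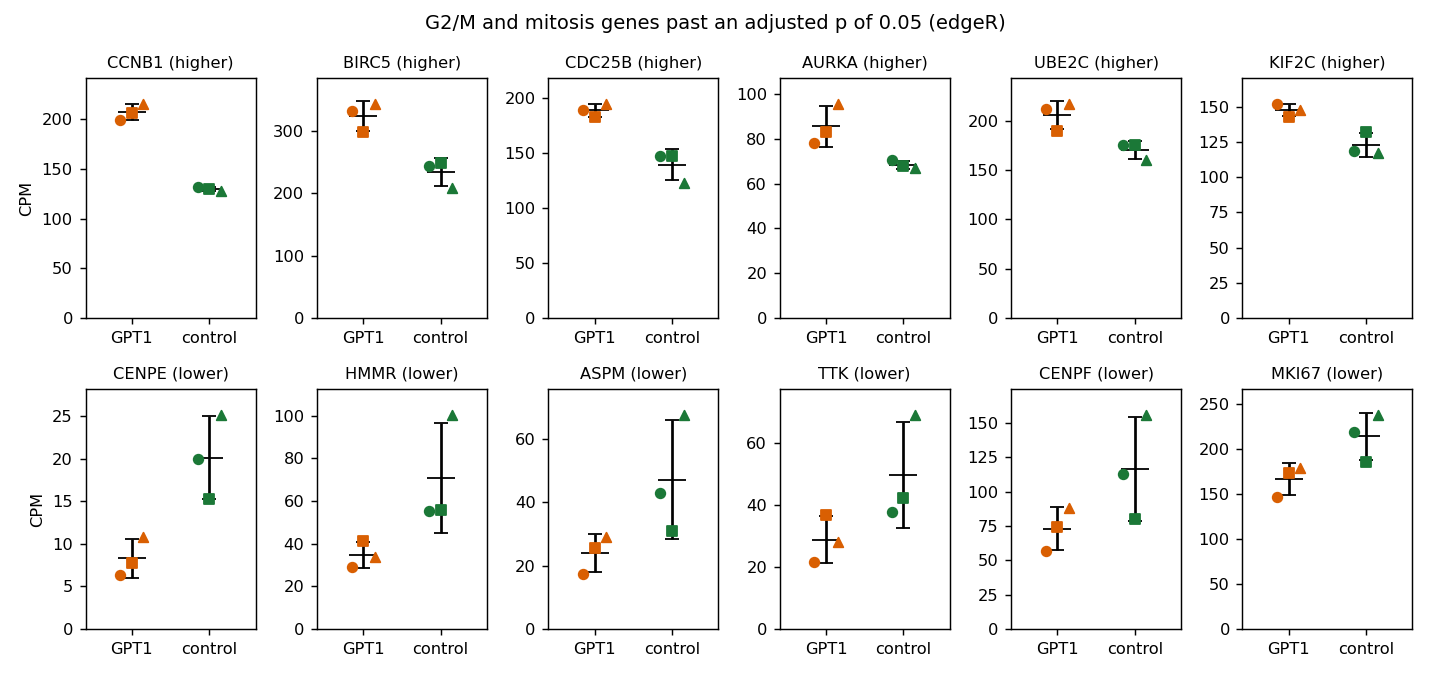
CPM (y axis, from 0) of the 12 genes past an adjusted p of 0.05 in GPT1 and control libraries; circle, square and triangle are replicates 1, 2 and 3, and the bar is the mean ± SD (n = 3). CCNB1 lies between 199 and 215 CPM in GPT1 and between 128 and 132 CPM in control, while CENPE lies between 6.37 and 10.8 CPM in GPT1 and between 15.3 and 25.2 CPM in control.

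Among the 9 genes of mitotic entry, 3 rose and none fell in edgeR, or 33.3% called against 25.1% of all tested genes. Their median log2 fold change was 0.11. CCNA2 was lower at an unadjusted p under 0.05 in edgeR, and DESeq2 also called 3 higher and none lower. CCNB1, the cyclin B1 that activates CDK1 (chromosome 5, 69167010 to 69178245, plus strand, GRCh38), had 199, 206 and 215 CPM in GPT1, against 132, 130 and 128 CPM in control. Every GPT1 library stood above every control library, and the spread within each group was small: 207 ± 7.84 CPM in GPT1 and 130 ± 2.15 CPM in control (SD, n = 3 each). This is a log2 fold change of 0.67 ± 0.08 (SE; 1.59-fold; adjusted p = 0.00034 by edgeR).

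CDC25B, a phosphatase that removes the inhibitory phosphates of CDK1 (chromosome 20, 3786772 to 3806121, plus strand), had 189, 183 and 194 CPM in GPT1, against 148, 148 and 123 CPM in control. All GPT1 libraries were above all control libraries, of which replicate 3 was the lowest (log2 fold change 0.44 ± 0.09, SE; adjusted p = 0.0089, edgeR). AURKA, the Aurora kinase of centrosomes and spindle poles (chromosome 20, 56369389 to 56392337, minus strand), had 78.1, 82.9 and 95.4 CPM in GPT1, against 70.3, 67.7 and 67.1 CPM in control. The groups did not overlap and GPT1 replicate 3 was the highest (log2 fold change 0.32 ± 0.10, SE; adjusted p = 0.033, edgeR). The edgeR adjusted p of AURKA was 0.182 without GPT1 replicate 3, 0.0518 without GPT1 replicate 1, 0.0716 without control replicate 1 and 0.0614 without control replicate 2, and that of CDC25B was 0.0528 without GPT1 replicate 3.

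CDK1 itself, the kinase that cyclin B1 activates, had 99.1, 116 and 98.7 CPM in GPT1, against 104, 103 and 164 CPM in control, and did not pass the test (log2 fold change -0.24; adjusted p = 0.29, edgeR). Control replicate 3 stood apart and the other 5 libraries overlapped; without it the value was 0.03. CCNA2, cyclin A2 of S and G2 phase, had a log2 fold change of -0.28 (adjusted p = 0.078, edgeR; 0.0452 without GPT1 replicate 2). CCNB2, the second B-type cyclin, was at 96.0 ± 5.204 CPM in GPT1 and 90.3 ± 4.42 CPM in control (SD, n = 3 each; log2 fold change 0.09). CDC25C, PLK1 and the centrosomal kinase gene NEK2 had log2 fold changes of 0.18, 0.11 and -0.25 and did not pass the test.

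Of the 3 genes of the APC/C and mitotic exit, UBE2C rose and none fell, by edgeR at an adjusted or an unadjusted p and by DESeq2. In edgeR at the adjusted p this is 33.3% called, against 25.1% of all tested genes. UBE2C, the ubiquitin-conjugating enzyme that works with the APC/C (chromosome 20, 45812576 to 45816957, plus strand), had 212, 190 and 217 CPM in GPT1, against 176, 176 and 160 CPM in control. The groups did not overlap (log2 fold change 0.27 ± 0.08, SE; adjusted p = 0.038, edgeR). The edgeR adjusted p was 0.0769 without control replicate 1, 0.0523 without control replicate 3, 0.132 without GPT1 replicate 1 and 0.168 without GPT1 replicate 3. CDC20, the APC/C activator, and PTTG1, the securin that restrains separase, had log2 fold changes of 0.11 and -0.17 and did not pass.

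Of the 5 spindle checkpoint genes, TTK fell in edgeR and none rose there, at an unadjusted p or by DESeq2. In edgeR this is 20% called, against 25.1% of all tested genes. TTK, the checkpoint kinase also called MPS1 (chromosome 6, 80003887 to 80042527, plus strand), had 21.8, 36.8 and 27.96 CPM in GPT1, against 37.7, 42.4 and 69.2 CPM in control. The highest GPT1 library lay just under the lowest control library (log2 fold change -0.78 ± 0.23, SE; adjusted p = 0.033, edgeR). The log2 fold change was -0.46 without control replicate 3, and the edgeR adjusted p was 0.119 without GPT1 replicate 1 and 0.101 without GPT1 replicate 3 (DESeq2 adjusted p = 0.0947 with all libraries). The checkpoint kinases BUB1 and BUB1B and the checkpoint proteins BUB3 and MAD2L1 had log2 fold changes between -0.22 and 0.05 and did not pass.

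Of 6 genes of the centromere and the chromosomal passenger complex, BIRC5 rose and CENPE and CENPF fell. This is 50% called, against 25.1% of all tested genes. BIRC5, which encodes the passenger subunit survivin (chromosome 17, 78214186 to 78225636, plus strand), had 332, 298 and 343 CPM in GPT1, against 244, 249 and 208 CPM in control, and the groups did not overlap (log2 fold change 0.47 ± 0.09, SE; adjusted p = 0.0074, edgeR). CENPE, the kinesin that carries chromosomes to the spindle equator (chromosome 4, 103105806 to 103198409, minus strand), had 6.37, 7.70 and 10.8 CPM in GPT1, against 19.96, 15.3 and 25.2 CPM in control. Every GPT1 library was below every control library; the underlying counts were 198, 235 and 331 in GPT1 and 653, 482 and 544 in control. With a log2 fold change of -1.27 ± 0.22 (SE; adjusted p = 0.0036 by edgeR) it was the lowest among the 37 tested genes.

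CENPF, a kinetochore and nuclear matrix protein (chromosome 1, 214603195 to 214664588, plus strand), had 56.7, 74.4 and 88.1 CPM in GPT1, against 113, 80.3 and 156 CPM in control. Here the groups overlapped, since control replicate 2 was below GPT1 replicate 3 (log2 fold change -0.67 ± 0.21, SE; adjusted p = 0.043, edgeR). Without control replicate 3 the log2 fold change was -0.39 (edgeR adjusted p 0.0676), and the adjusted p was also over 0.05 without control replicate 1 (0.0899) and without GPT1 replicates 1, 2 and 3 (0.152, 0.0690 and 0.0569). The centromeric histone gene CENPA, its chaperone HJURP and the passenger kinase gene AURKB had log2 fold changes of 0.19, 0.06 and 0.05 and did not pass.

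Of 7 tested spindle motor and microtubule-associated genes, KIF2C rose and HMMR and ASPM fell in edgeR. This is 42.9% called, against 25.1% of all tested genes. At an unadjusted p under 0.05 in edgeR 1 was higher and 4 were lower, and DESeq2 called 1 higher and 2 lower. KIF2C, a kinesin that depolymerises microtubules at centromeres (chromosome 1, 44739818 to 44767767, plus strand), had 152, 143 and 148 CPM in GPT1, against 119, 132 and 118 CPM in control, without overlap (log2 fold change 0.26 ± 0.08, SE; adjusted p = 0.039, edgeR). Its edgeR adjusted p was 0.116 without control replicate 1, 0.140 without GPT1 replicate 1 and 0.137 without GPT1 replicate 3. HMMR, a spindle-assembly factor and hyaluronan receptor (chromosome 5, 163460203 to 163491945, plus strand), had 29.2, 41.3 and 33.8 CPM in GPT1, against 55.6, 56.0 and 101 CPM in control. The groups were apart, and control replicate 3 was far above the other control libraries (log2 fold change -1.02 ± 0.22, SE; adjusted p = 0.0097, edgeR; -0.67 without that library).

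ASPM, a spindle pole protein (chromosome 1, 197084128 to 197146694, minus strand), had 17.3, 25.7 and 29.003 CPM in GPT1, against 43.0, 30.8 and 67.7 CPM in control. The groups came close without overlapping (log2 fold change -0.97 ± 0.26, SE; adjusted p = 0.023, edgeR), and the value was -0.60 without control replicate 3, while the edgeR adjusted p was 0.0863 without GPT1 replicate 1 (DESeq2 adjusted p = 0.0562 with all libraries). KIF11, the kinesin that pushes spindle poles apart, had a log2 fold change of -0.51 (adjusted p = 0.059, edgeR), and DLGAP5, a spindle assembly factor, one of -0.42 (adjusted p = 0.080, edgeR). Both were past 0.05 without control replicate 2 (0.0260 and 0.0225, edgeR adjusted p), and KIF11 also without GPT1 replicate 2 (0.0353). TPX2, the activator of Aurora A on microtubules, and CKAP2, a microtubule-associated protein, had log2 fold changes of -0.03 and -0.25.

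None of the 5 cytokinesis genes passed the test in edgeR, against 25.1% of all tested genes. ECT2 was lower at an unadjusted p under 0.05 in edgeR and by DESeq2 (adjusted p = 0.017). All 5 log2 fold changes were negative, with a median of -0.27. The kinesin genes KIF20A and KIF23 and the scaffold gene ANLN lay between -0.27 and -0.08, and ECT2, which activates RhoA at the cell equator, at -0.57 (adjusted p = 0.054, edgeR; 0.0184 without control replicate 2). PRC1, the bundler of the central spindle, had 33, 34 and 19 counts in GPT1, against 40, 44 and 30 in control, about 1 CPM. NUSAP1, a spindle microtubule binder, had 5, 6 and 11 counts in GPT1, against 6, 21 and 4 in control. Both genes overlap, over nearly their whole length, an annotated protein-coding gene on the same strand, which had 131 to 220 counts in GPT1 and 186 to 207 in control over PRC1 and 0 in all libraries over NUSAP1, so their values are uncertain; the part of this overlap was not tested. CCNA2, CDC25C, CENPA, KIF20A and ANLN also share positions with an annotated gene of at least 100 counts, and whether reads were counted by strand is not given in these sources, so part of their counts may belong to the neighbour.

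Of the 2 chromosome structure genes, MKI67 fell, or 50% called against 25.1% of all tested genes. MKI67, the proliferation marker that coats mitotic chromosomes (chromosome 10, 128096659 to 128126385, minus strand), had 146, 173 and 179 CPM in GPT1, against 218, 186 and 237 CPM in control, with the highest GPT1 library just below the lowest control library (log2 fold change -0.36 ± 0.11, SE; adjusted p = 0.035, edgeR). The edgeR adjusted p was over 0.05 without control replicate 1 (0.105), control replicate 3 (0.0610) and GPT1 replicates 1, 2 and 3 (0.146, 0.0551 and 0.0722). TOP2A, the topoisomerase that untangles sister chromatids, had 113, 153 and 170 CPM in GPT1, against 174, 161 and 291 CPM in control. The groups overlapped and TOP2A did not pass (log2 fold change -0.52 ± 0.21, SE; adjusted p = 0.087, edgeR; 0.0250 without control replicate 2, and a log2 fold change of -0.19 without control replicate 3).

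The genes that rose had shorter and GC-richer transcripts than those that fell. Longest transcripts of the 6 that rose were 0.914 to 3.60 kb (median 2.48 kb) with a GC content of 43.2 to 59.3%, and those of the 6 that fell were 3.10 to 12.7 kb (median 9.46 kb) with 35.3 to 48.3%. Split at the median length of the 38 genes, 3.39 kb, 5 of the 18 tested shorter genes rose and 1 (HMMR) fell, with a median log2 fold change of 0.08. Of the 19 longer genes, 1 (CDC25B) rose and 5 fell, with a median of -0.27, a difference of -0.35 between the classes. Among all tested genes at or under the same length, 21.4% were called, 13.7% higher and 7.73% lower, with a median of 0.09; over it, 29.8% were called, 7.08% higher and 22.7% lower, with a median of -0.15. Classes by the median length of a gene's transcripts in place of the longest gave -0.17 for the shorter genes and a difference of 0.03, while coding length, chosen after seeing the data, gave a difference of -0.46.

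**Figure D2:**
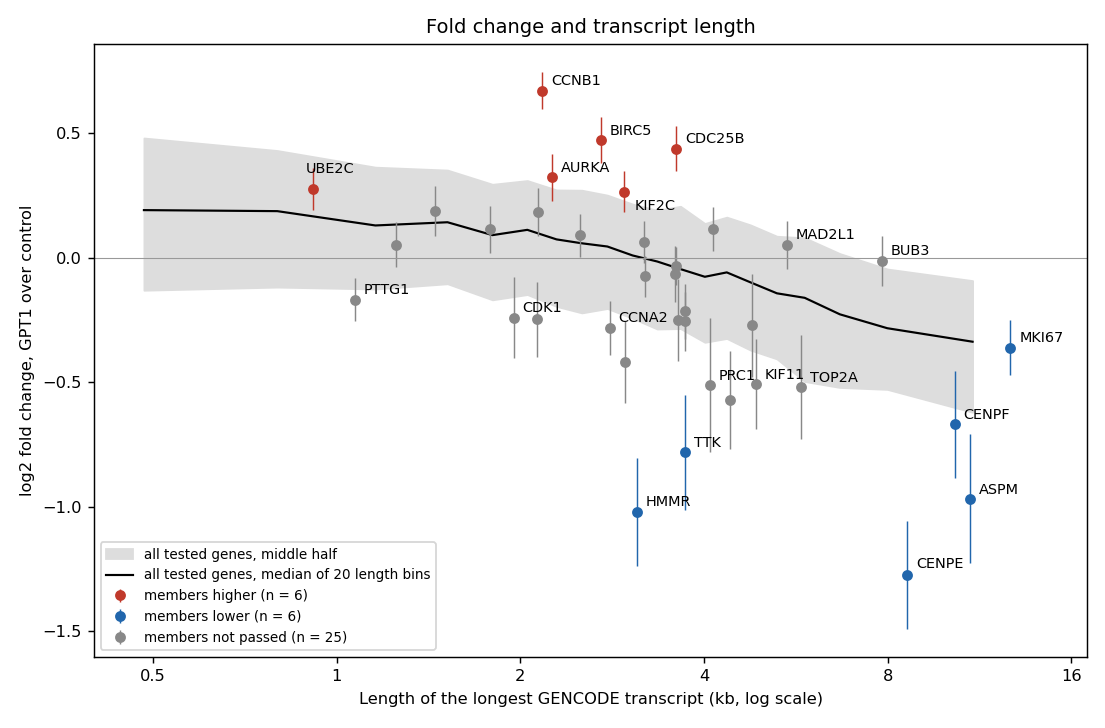
log2 fold change, GPT1 over control (y axis), against the length of the longest GENCODE transcript (x axis, kb, log scale) for the 37 tested genes, with bars of 1 SE; the line and band are the median and the interquartile range of all tested genes in 20 length bins. CENPE at -1.27 and ASPM at -0.97 lie under the band at the long end, and CCNB1 at 0.67 lies above it at the short end.

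All 4 genes over 8 kb (CENPE, CENPF, ASPM and MKI67) fell, whereas 36% of all 1301 tested genes over 8 kb did. The 537 tested genes over 8 kb with a GC content under 42%, the class of CENPE, CENPF and ASPM, had a median log2 fold change of -0.52 and 48.4% of them fell; CENPE (-1.27), ASPM (-0.97) and CENPF (-0.67) were below that median. Over 36 of the genes, without PRC1 and NUSAP1, the Spearman correlation of log2 fold change was -0.59 with length and 0.77 with GC content, against -0.33 and 0.31 over 17436 tested genes; these are across genes, which are not independent replicates and share the same 6 libraries.

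The contrast of CCNB1 with CENPE was present in every library. The ratio of CCNB1 to CENPE counts was 31.3, 26.8 and 19.9 in GPT1, against 6.61, 8.51 and 5.08 in control, with no overlap. On the log2 scale the ratio was 4.67 ± 0.33 in GPT1 and 2.72 ± 0.37 in control (SD, n = 3 each), a difference of 1.95; the pair was named because of its lengths with these data known, so the difference is a description. The longer genes as a class were less uniform. Their median log2 CPM deviation from each gene's mean was -0.38, 0.01 and -0.02 in GPT1, against 0.03, -0.03 and 0.43 in control, so GPT1 replicate 1 was low, control replicate 3 was high and the other 4 libraries were close together. The same 2 libraries were at the ends in GC content over all genes: the Spearman correlation of a library's deviation with GC content was 0.47, -0.13 and 0.27 in GPT1, against -0.03, 0.08 and -0.52 in control. With transcript length the correlation was -0.377, -0.135 and -0.238 in GPT1, against 0.285, 0.065 and 0.297 in control, without overlap. Median deviations of the shorter genes were 0.018, 0.028 and 0.05 in GPT1, against -0.074, -0.054 and -0.069 in control, also without overlap.

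**Figure D3:**
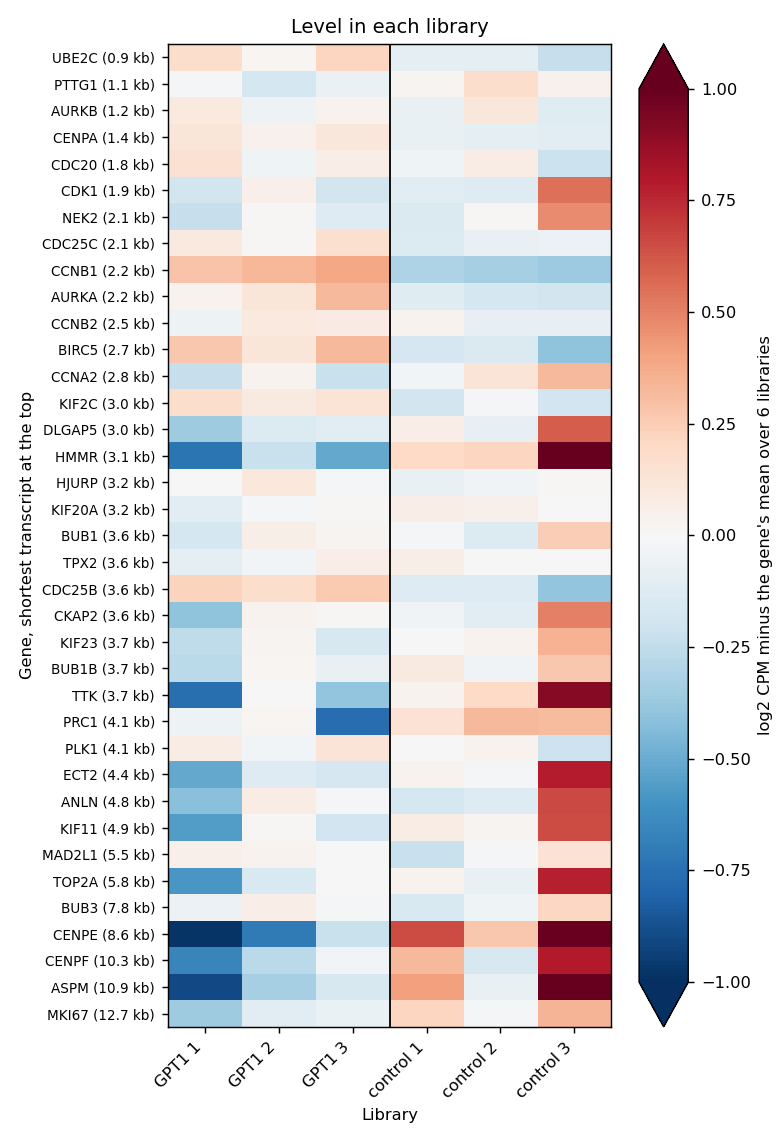
Level of the 37 tested genes (rows, shortest transcript at the top, length in kb) in the 6 libraries (columns), as log2 CPM minus the gene's mean over all libraries; red is above and blue below, and the scale stops at 1 in both directions. CCNB1 is red in all GPT1 columns and blue in all control columns, while among the long genes at the bottom GPT1 replicate 1 and control replicate 3 are the strongest columns.

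A smooth trend of length and GC content was then removed from each library before the same edgeR test. Over all genes 19.9% were then higher and 14.8% lower, and the median log2 fold change of the 37 G2/M and mitosis genes was -0.01. With this correction 7 rose and 6 fell. CCNB1 (0.71), CDC25B (0.44), BIRC5 (0.40), AURKA (0.28) and KIF2C (0.21) remained higher, and CENPE (-0.73), HMMR (-0.71), TTK (-0.56) and ASPM (-0.42) remained lower, all as log2 fold changes with an adjusted p under the threshold. UBE2C (0.10, adjusted p = 0.24), CENPF (-0.24, adjusted p = 0.18) and MKI67 (-0.12, adjusted p = 0.18) no longer passed in edgeR. 4 genes that had not passed in the uncorrected test with all libraries and the low-count filter passed with the correction. The checkpoint genes BUB3 (0.34, against -0.01 uncorrected) and MAD2L1 (0.39, against 0.05) passed as higher. PTTG1 (-0.32, against -0.17) and CCNA2 (-0.17, against -0.28, adjusted p = 0.0499, edgeR) passed as lower. Uncorrected, BUB3 was at 208 CPM in GPT1 and 210 CPM in control, and MAD2L1 at 190 CPM in GPT1 and 183 CPM in control, with overlapping groups. The correction used their longest transcripts, 7.83 kb for BUB3 and 5.47 kb for MAD2L1. The median lengths of their transcripts are 895 and 764 bases.

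**Figure D4:**
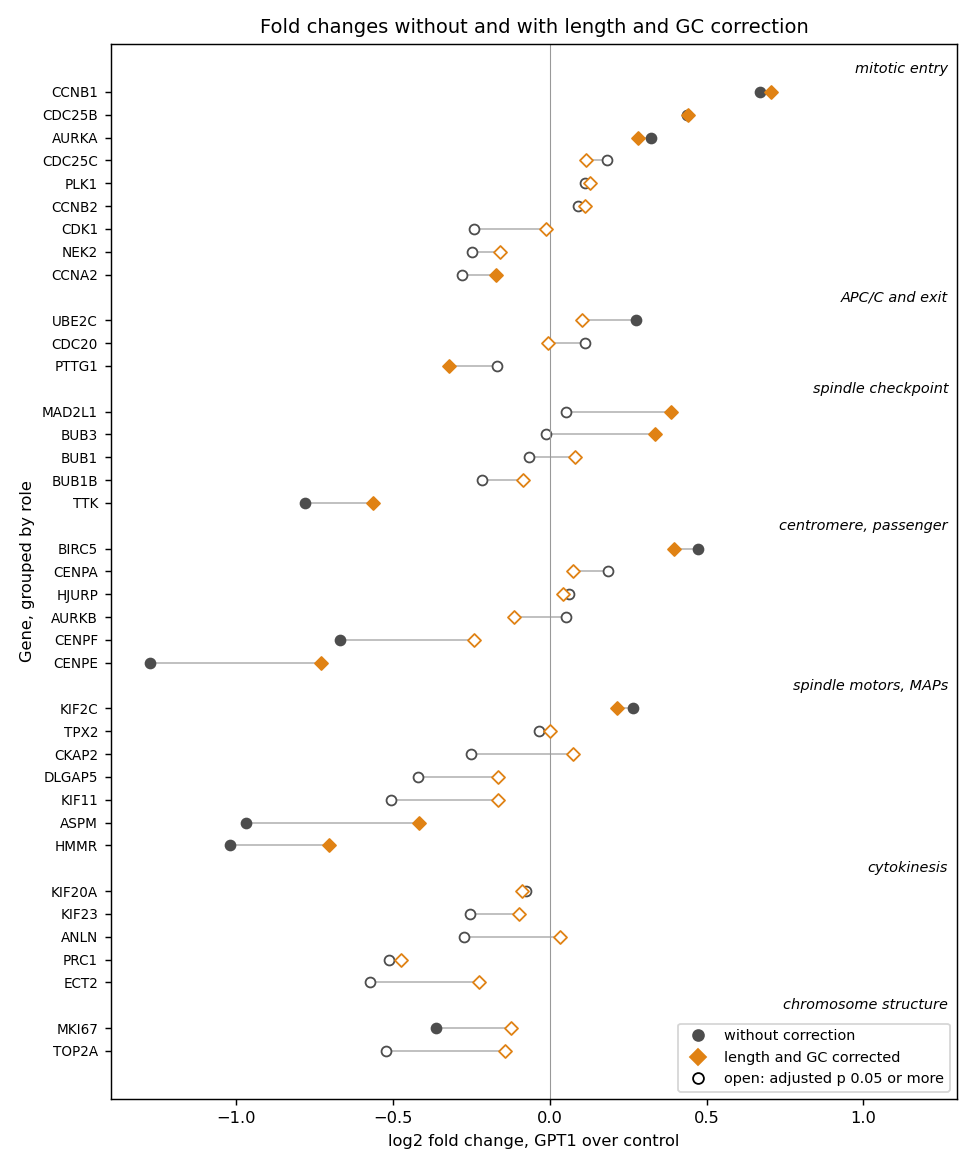
log2 fold change, GPT1 over control (x axis), of the 37 tested genes grouped by role (y axis) without correction (grey circles) and after removal of the length and GC trend (orange diamonds); open symbols have an adjusted p of 0.05 or more. CENPE moves to -0.73 with the correction, against -1.27 without it, and CCNB1 is at 0.71 with it, against 0.67 without it.

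With the correction the median was 0.02 for shorter and -0.10 for longer genes, a difference of -0.12, against -0.35 without it. The Spearman correlation over the 36 genes was then -0.24 with length and 0.50 with GC content. HMMR, with a 3.10 kb transcript of 36.65% GC, stood lower than CCNB1, with 2.17 kb and 43.15% GC, both without and with the correction. The genes just inside the shorter class were HMMR, HJURP and KIF20A, with log2 fold changes of -1.02, 0.06 and -0.08, and those just over it BUB1, CDC25B and TPX2, with -0.07, 0.44 and -0.03.

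Per kilobase of longest transcript, UBE2C was the most abundant of the genes in both groups, at 226 CPM per kb in GPT1 and 187 in control, followed in both by CDC20, the APC/C activator, at 123 in GPT1 and 114 in control. BIRC5 was at 120 CPM per kb in GPT1 and 86.3 in control, and AURKB at 97.6 in GPT1 and 94.1 in control, so BIRC5 stood above AURKB in GPT1 and below it in control. CCNB1 was at 95.4 CPM per kb in GPT1, close to AURKB, and at 59.9 in control, close to CCNA2 at 59.9. The low end, apart from PRC1 and NUSAP1, held CENPE at 0.964 CPM per kb in GPT1 and 2.34 in control, ASPM at 2.21 in GPT1 and 4.33 in control, and CENPF at 7.09 in GPT1 and 11.3 in control.

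Of 14 regulators of this programme (MuvB subunits, MYB and FOXM1 factors, E2F and DP partners, pocket proteins and DYRK1A), 1 rose and 1 fell, or 14.3% called against 25.1% of all tested genes, with a median log2 fold change of -0.15. FOXM1, the activator of late cell cycle genes, was at 284 ± 13.0 CPM in GPT1 and 249 ± 30.02 CPM in control (SD, n = 3 each; log2 fold change 0.19; adjusted p = 0.17, edgeR), and MYBL2, which encodes B-MYB, at 826 ± 50.3 CPM in GPT1 and 723 ± 82.1 CPM in control (0.19; adjusted p = 0.17, edgeR). LIN37, a MuvB subunit, rose by a log2 fold change of 0.87 at 1.43 CPM in GPT1 and 0.761 CPM in control. The B-MYB relative MYBL1 fell (-0.54), but did not pass with the length and GC correction (-0.165). The MuvB subunit genes LIN9 (-0.14) and LIN54 (-0.45) did not pass.

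Of 19 other genes controlling mitotic entry, 4 rose and 4 fell, or 42.1% called against 25.1% of all tested genes (median -0.03). CKS2, a small CDK1 partner (0.54), CCNF, a substrate receptor for ubiquitination (0.38), GTSE1 (0.28) and ENSA, an inhibitor of PP2A (0.32), rose, whereas MASTL, the kinase that acts on ENSA (-0.60), the Hippo kinase LATS1 (-0.49), the centriole kinase PLK4 (-0.68) and CCNH (-0.49) fell. The inhibitory kinases WEE1 (0.10) and PKMYT1 (0.24) did not pass. With the length and GC correction WEE1 (0.45) and PKMYT1 (0.17) passed as higher, and LATS1 (-0.10) and CCNH (-0.21) no longer passed. Of 22 APC/C subunits, partners and inhibitors, 5 rose and 1 fell, or 27.3% called against 25.1% of all tested genes (median 0.12). ANAPC11, the RING subunit (0.55), MAD2L1BP, which opposes MAD2 (0.42), ANAPC7 (0.31) and ESPL1, the separase (0.30), were among those higher. FBXO5, the APC/C inhibitor EMI1 (-0.55), was lower. FZR1, the CDH1 activator, did not pass (0.15), but passed as higher with the length and GC correction (0.24).

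Of 35 other kinetochore, centromere and passenger genes, 3 rose and 6 fell, or 25.7% called against 25.1% of all tested genes. Their median was -0.02, as over all tested genes. CENPW (0.54), SPC25 (0.35) and CDCA8, the passenger subunit borealin (0.31), rose, and SPDL1 (-0.60), KNTC1 (-0.82), NUF2 (-0.69) and SGO1, the protector of centromeric cohesion (-0.50), were among those that fell. NDC80 (-0.32) and INCENP (-0.13) did not pass. NUF2, a microtubule-binding kinetochore subunit with a 1.97 kb transcript, was at 35.1 ± 3.38 CPM in GPT1 and 56.7 ± 17.2 CPM in control (SD, n = 3 each), and was lower with the length and GC correction too (-0.51).

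Cohesin and condensin genes, which hold and fold chromosomes and have long transcripts (median 5548 bases), had the largest lower share of the 9 lists plotted. Of 17, 9 fell and 1 rose, or 58.8% called against 25.1% of all tested genes, with a median of -0.41. SMC2, the condensin ATPase, was at 34.4 ± 5.33 CPM in GPT1 and 69.5 ± 25.3 CPM in control (SD, n = 3 each; log2 fold change -1.01), and STAG2 (-0.99), the loader NIPBL (-0.82) and PDS5A (-0.69) also fell; NCAPH2 (0.43) rose. With the length and GC correction 6 of the 17 fell and 2 rose, with a median of -0.09. Over all tested genes 14.8% were lower and 19.9% higher with that correction. Of 24 other kinesins and spindle genes 1 rose and 4 fell, or 20.8% called against 25.1% of all tested genes. TACC3, a spindle protein (0.39), was higher, and KIF20B (-1.11), KIF18A (-0.88), KIF2A (-0.67) and CKAP5 (-0.41) were lower. With the length and GC correction CKAP5 no longer passed (-0.17).

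**Figure D5:**
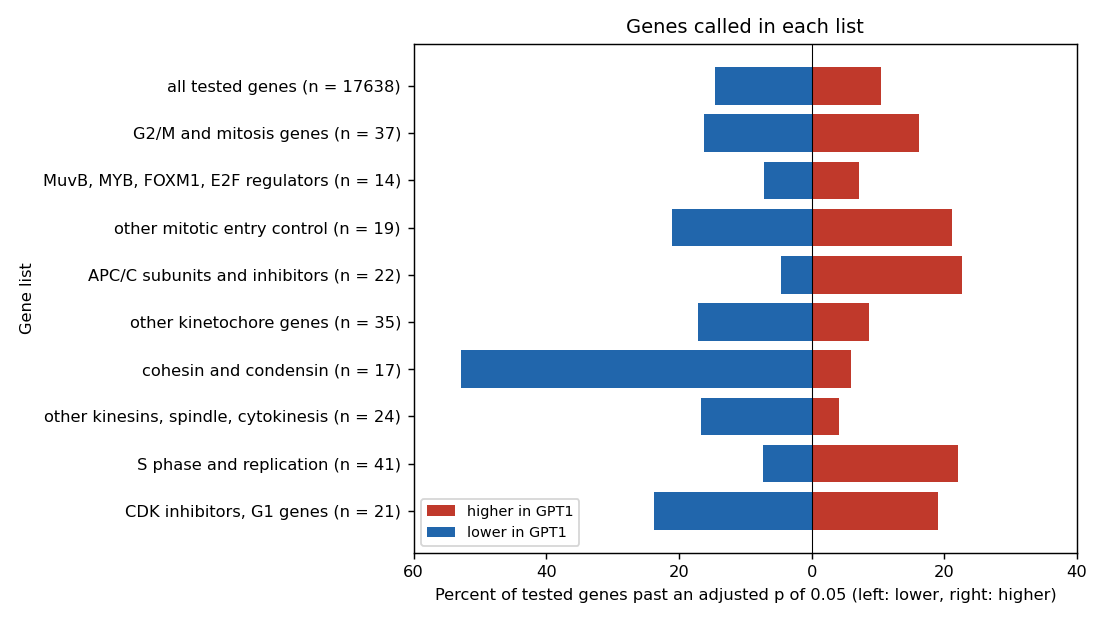
Percent of tested genes (x axis) past an adjusted p of 0.05, higher in GPT1 to the right and lower in GPT1 to the left, in each gene list (y axis, n tested) and in all tested genes. Cohesin and condensin genes have 52.9% lower, against 14.6% of all tested genes, and the G2/M and mitosis genes have 16.2% in each direction.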

How the data were processed

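The deposited table gave raw counts per gene, made by the authors, for 6 bulk mRNA-seq libraries of HCT8 (3 GPT1, 3 control); the values are whole numbers. Reads were aligned with HISAT2 2.0 to GRCh38, per the submitters' processing notes. No label or header used here names the counting tool, its annotation or its strand setting. Groups were taken from the labels' treatment. Genes were kept by edgeR's filterByExpr, scaled by TMM and tested with the two-sided quasi-likelihood test of edgeR 4.0.16 in R 4.3.3 over all 17638 tested genes, with Benjamini-Hochberg adjustment at 0.05. The test was tested on simulated data first. CPM values use TMM-scaled totals, except the summed marker levels, which use unscaled library totals. Length and GC content came from GENCODE 29; the correction fitted a smooth of both per library (mgcv 1.9.3) as an offset. Sequences came from RefSeq GRCh38.p14. Replicates of a group differed by more than sampling noise.

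The members, gene lists, tests and alternatives were chosen with earlier results of these data known. All 38 members were to be named, and in each other list up to 4 genes with the smallest adjusted p in each direction plus a fixed set of regulators. Alternatives covered scaling, filters, DESeq2 1.42.0, limma voom 3.58.1, thresholds, length measures, a replicate block and leaving out each library. Depth was 21255655 to 32487217 counts per library. Of the genes this rule names, 1 is not reported here.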

Additional observations from a re-analysis of the deposited data

How the results depend on the processing

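Over 20 alternatives, CCNB1, CENPE and HMMR kept their direction and their call, with highest adjusted p-values of 0.0047, 0.0177 and 0.0431 (edgeR, DESeq2 or limma); the other 9 called genes each lost the call under at least 1. Without a low-count filter 11 members were lower. The share of all genes called under that setting is not given here, so this count is not read as a member result. Tested against a 1.2-fold change, 1424 genes passed, with 1 member higher and 2 lower; at an adjusted p of 0.01, 1172 genes, 3 members higher and 2 lower. With the length and GC offset, 3506 genes were higher and 2611 lower, against 1858 and 2572; the member median was -0.012, the shorter members' median 0.0195 and the difference -0.12. A length offset alone gave 0.062 for the shorter members. Classes by median transcript length gave -0.17 for the shorter members and a difference of 0.032, and with the length and GC offset -0.0065 for all members, -0.092 for shorter, 0.10 for longer and 0.19 for the difference. Coding length, chosen after seeing the data, gave 0.10 for the shorter members. BUB3 turned positive with the length and GC offset (0.34), the length offset (0.28) and the median length with GC (0.17). The cause of these changes was not tested.

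Leaving out single libraries gave 1443 to 4907 genes, 2 to 6 members higher and 2 to 10 lower, a member median of -0.19 to -0.018, a shorter median of 0.07 to 0.097, a longer median of -0.40 to -0.12 and a difference of -0.50 to -0.19. The lowest gene counts were 1443 without GPT1 replicate 3 and 1586 without GPT1 replicate 1, with 2565 without control replicate 1.

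Same-numbered libraries correlated at 0.141, -0.282 and -0.084, so the numbers were not taken as pairs, and libraries did not all correlate best with their own number. The replicate block gave 3886 genes (1416 higher, 2470 lower), 3 members higher and 9 lower. KIF11, ECT2 and TOP2A, not called in the main test, were among the 9 lower. With the length and GC offset the block gave a member median of -0.0061 and 0.34 for BUB3. It gave 0.0195 for the shorter members and -0.12 for the difference. PRC1 and NUSAP1 had 4 to 44 counts per library, which limits the precision of their values.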

Other observations

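Genes of other cell cycle phases moved in both directions. Of 41 genes of S phase and replication, 9 rose and 3 fell, or 29.3% called against 25.1% of all tested genes. Their median log2 fold change was 0.07, against -0.02 over all tested genes. TYMS, the thymidylate synthase, was at 259 ± 11.2 CPM in GPT1 and 177 ± 21.3 CPM in control (SD, n = 3 each; log2 fold change 0.55; adjusted p = 0.0043, edgeR). RPA3 (0.50), RPA2 (0.36), GINS3 (0.33) and cyclin E1, encoded by CCNE1 (0.29), also rose, while RFC1 (-0.65), POLA1 (-0.32) and CCNE2 (-0.53) fell. With the length and GC correction CCNE1 (0.17), POLA1 (-0.10) and CCNE2 (-0.23) no longer passed. MCM2 (0.07) and PCNA (0.02) did not pass the test.

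Of 21 CDK inhibitor and G1 genes, 4 rose and 5 fell, or 42.9% called against 25.1% of all tested genes. CDKN1A, which encodes the CDK inhibitor p21, was at 270 ± 25.04 CPM in GPT1 and 167 ± 19.7 CPM in control (SD, n = 3 each; log2 fold change 0.69; adjusted p = 0.0019, edgeR), and was higher with the length and GC correction too (0.61). CCND1, which encodes cyclin D1, was at 51.0 ± 3.44 CPM in GPT1 and 74.2 ± 3.90 CPM in control (SD, n = 3 each; log2 fold change -0.54; adjusted p = 0.0038, edgeR). BTG2 (0.51), CDKN2C (0.43) and CDK4 (0.35) rose, and CDK6 (-0.89), SFN (-0.84) and GADD45A (-0.28) fell. CDKN1B (0.19) did not pass. CDKN1A and CCNB1 were both higher in GPT1 in all 3 libraries than in any control library, as were 21.2% of all tested genes.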
